A study of Mus musculus with 12 samples.

Results

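The genes of the mitochondrial ribosome whose symbols begin with Mrpl or Mrps followed by a number were examined in mpkCCD cells, a mouse cell line with features of the cortical collecting duct. The rule took every row of the deposited FPKM values with such a symbol, left out names that contain -ps, and used no filter on expression. It gave 78 genes of the 52015 that were used, 49 named Mrpl and 29 named Mrps. Of these, 77 reached 0.5 FPKM in at least 1 group and could be compared. The remaining gene, Mrpl53, was listed at 0 in all 4 groups.

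RNA-seq had been done on 12 cultures in 4 groups. Scr_300 and Scr_600 (2 libraries each) are mpkCCD cells that received a scramble guide RNA without a target, and Nfat5-KO_300 and Nfat5-KO_600 (4 libraries each) are cells of the CRISPR/Cas9 clones N1 and N3, in which Nfat5 was deleted. Nfat5 encodes a transcription factor that is activated by hypertonicity. Cells were kept for 5 days at 300 mosmol/kg (isotonic) or at 600 mosmol/kg (hypertonic), the latter reached with 100 mM NaCl and 100 mM urea. All groups share the cell line and culture on plastic. The study gives the knockout groups as cells of a pair of clones, so that clone and knockout cannot be told apart from the group values. FPKM, the fragments per kilobase of exon scaled to the mapped fragments of a library, was deposited as 1 value per gene and group, so that no spread between libraries, no standard error and no p-value can be given for any value below, and no difference has a replicate check. Differences are log2 ratios of FPKM + 0.1 over genes with at least 0.5 FPKM in 1 of the 2 groups compared, and a gene is counted as higher or lower when the ratio is at least 1.2-fold.

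Read depth is unknown. The FPKM values summed to 253756 in Scr_300, 231932 in Scr_600, 251080 in Nfat5-KO_300 and 212247 in Nfat5-KO_600. Nfat5 itself had 5.61 FPKM in Scr_300, 7.93 in Scr_600, 3.47 in Nfat5-KO_300 and 6.88 in Nfat5-KO_600, so that its RNA was still detected in the knockout groups. Of the 10 principal cell markers examined, 4 reached 0.5 FPKM in a group, and Aqp2, which defines the principal cell, lay between 0 and 0.245 FPKM. All 4 epithelial markers were above that limit, as were 1 of 4 intercalated cell markers (Atp6v1b1, 0.973 FPKM in Scr_300 and 0.149 in Nfat5-KO_600) and 1 of 3 proximal tubule markers (Lrp2, 0.000936 and 1.07 FPKM in the same groups), and the fibroblast and thick ascending limb markers were not. The summed principal cell markers were 9.84 FPKM in Scr_300, 8.68 in Scr_600, 20.5 in Nfat5-KO_300 and 46.4 in Nfat5-KO_600. Gata3 made up 30.0 FPKM of the last sum, while Aqp3 lay between 2.07 and 2.93 FPKM, so the sum does not stand for each marker. The part of the marker differences in the ratios below was not tested.

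Mitochondria keep a ribosome of their own that makes the few proteins encoded in the mitochondrial genome, all of them subunits of the respiratory chain and ATP synthase. Its rRNAs come from the mitochondrial genome, while every one of its proteins is encoded in the nucleus, made in the cytosol and imported. The large subunit holds the centre that forms the peptide bond and the tunnel through which the new protein leaves, and the small subunit binds and decodes the mRNA. Many of the proteins have a counterpart in bacteria, and others were added during the evolution of mitochondria. By textbook placement, 51 of the 78 genes encode proteins of the large subunit, of which 31 have a bacterial counterpart, and 26 encode proteins of the small subunit, of which 17 have one. The last gene, Mrps36, is named as a ribosomal protein but is known as a part of the 2-oxoglutarate dehydrogenase complex.

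The genes lie on 17 chromosomes of GRCm38, with 11 on chromosome 11 as the highest number. Their exons cover a median of 2394 bases, against 4419 bases for protein-coding genes that reached 0.5 FPKM. Within 1000 bp, 23 of the 78 (29.5%) have a head-to-head partner, against 12.9% of the 10917 such genes with a position. A head-to-head partner is a protein-coding gene on the opposite strand whose start lies before the member's start or shortly past it. Mrpl46 and Mrps11, on opposite strands with starts 412 bp apart, overlap at their starts and were not counted. Promoter windows of 300 bases, from 250 before to 50 after the start in RefSeq (GRCm38.p6), were found for 69 genes. The letters CCGGAAG, a core bound by ETS factors such as GABPA, were in the windows of 26 of these 69 (37.7%), against 21.5% of genes with at least 0.5 FPKM and 9.93% of all genes. AAGATGGC, a YY1 core that often lies at the start, was in 12 (17.4%, against 5.66% and 3.19%). GCATGCGC, the core bound by the factor NRF1, was in 8 (11.6%, against 6.3% and 3.05%). The SP1 letters GGGCGG were in 34 (49.3%, against 70.5% and 38.2%), and TATAAA was in 5 (7.25%, against 8.02% and 15.7%). Both strands were searched, and no searched motif contains another. CCAAT was in 27 (39.1%, against 43.3% and 41.1%) and CACGTG in 5 (7.25%, against 11.9% and 8.09%). The tonicity element TonE, to which NFAT5 binds, had a match in the window of 0 of 69 genes and of 5.74% of all genes, which says only that the letters are not in these windows.

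Stretches of 150 bases that end just before the annotated start are shown for the genes with the most different ratios described below, Mrps6 and Mrpl45 (higher at 600 mosmol/kg) and Mrps15 and Mrps16 (among the lowest in Nfat5-KO cells at 600 mosmol/kg), and for Mrpl9 and Mrps18a as carriers of the NRF1 and ETS letters. They were taken from RefSeq promoters (GRCm38.p6), are written 5′ to 3′ on the gene's strand, and capitals mark the motif letters searched on either strand. They lie at chr16:92058120-92058269 (plus strand), chr11:97315566-97315715 (plus), chr4:126046775-126046924 (plus), chr14:20393635-20393784 (minus), chr3:94443168-94443317 (plus) and chr17:46110836-46110985 (plus), and no exon annotated in GENCODE M21 overlaps them.
Mrps6: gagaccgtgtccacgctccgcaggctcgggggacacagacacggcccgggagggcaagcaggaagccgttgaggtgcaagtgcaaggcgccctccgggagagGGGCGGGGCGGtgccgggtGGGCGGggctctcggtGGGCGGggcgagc
Mrpl45: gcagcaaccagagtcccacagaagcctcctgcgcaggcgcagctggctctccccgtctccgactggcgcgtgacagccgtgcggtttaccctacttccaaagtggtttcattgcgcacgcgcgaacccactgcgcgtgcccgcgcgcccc
Mrps15: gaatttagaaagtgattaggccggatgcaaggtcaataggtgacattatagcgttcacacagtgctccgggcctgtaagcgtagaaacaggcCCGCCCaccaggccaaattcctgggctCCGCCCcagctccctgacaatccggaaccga
Mrps16: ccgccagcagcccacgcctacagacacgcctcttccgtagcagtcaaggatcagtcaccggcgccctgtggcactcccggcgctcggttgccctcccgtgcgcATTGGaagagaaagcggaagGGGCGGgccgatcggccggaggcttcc
Mrpl9: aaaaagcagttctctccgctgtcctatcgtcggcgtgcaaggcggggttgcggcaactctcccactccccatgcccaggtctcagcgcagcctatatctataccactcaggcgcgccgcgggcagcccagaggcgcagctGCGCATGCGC
Mrps18a: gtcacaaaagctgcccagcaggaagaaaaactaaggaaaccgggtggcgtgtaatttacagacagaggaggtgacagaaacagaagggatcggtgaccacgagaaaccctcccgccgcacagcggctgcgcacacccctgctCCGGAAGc

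The Mrps6 stretch holds SP1 letters in several copies and no TATAAA, and it lies before the start of a second gene, Slc5a3, described below. In Mrpl45 none of the searched letters is in the stretch. The windows of genes with and without the ETS letters had like ratios in Nfat5-KO cells between both osmolalities (median -0.37 on the log2 scale over 25 genes with the letters and -0.34 over 43 without). For YY1 the medians were -0.22 over 12 genes with the letters and -0.42 over 56 without. For NRF1 they were -0.29 over 8 with and -0.38 over 60 without, and for SP1 -0.42 and -0.34 over 34 each. Between genotypes at 600 mosmol/kg the YY1 medians had the other order, -0.24 with the letters and -0.16 without. No difference between genes with and without a motif was tested.

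The levels of the genes spanned a wide range. In Scr_300 the median was 15.7 FPKM, 22 of 78 genes lay under 10 FPKM, 32 between 10 and 25 and 24 at 25 or above. Mrpl54, a mitochondria-specific protein of the large subunit, had the highest level in Scr_300 with 118 FPKM, and it had 107 in Scr_600, 94.6 in Nfat5-KO_300 and 62.9 in Nfat5-KO_600. Mrpl34, which has a bacterial counterpart, had 97.1 FPKM in Scr_300, 106 in Scr_600, 96.2 in Nfat5-KO_300 and 101 in Nfat5-KO_600. The 4 values of Mrpl34 lay close together, while those of Mrpl54 had their lowest value in the hypertonic knockout. Next in Scr_300 came Mrpl12 with 81.0 FPKM, Mrpl28 with 80.8 FPKM and Mrpl49 with 78.6 FPKM. Without a spread between libraries it cannot be said whether these neighbours in the order differ. The lowest levels above 0 in Scr_300 were those of Mrpl48 (2.95 FPKM), Mrps35 (3.29 FPKM), Mrps30 (4.51 FPKM) and Mrpl32 (4.71 FPKM).

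**Figure D1:**
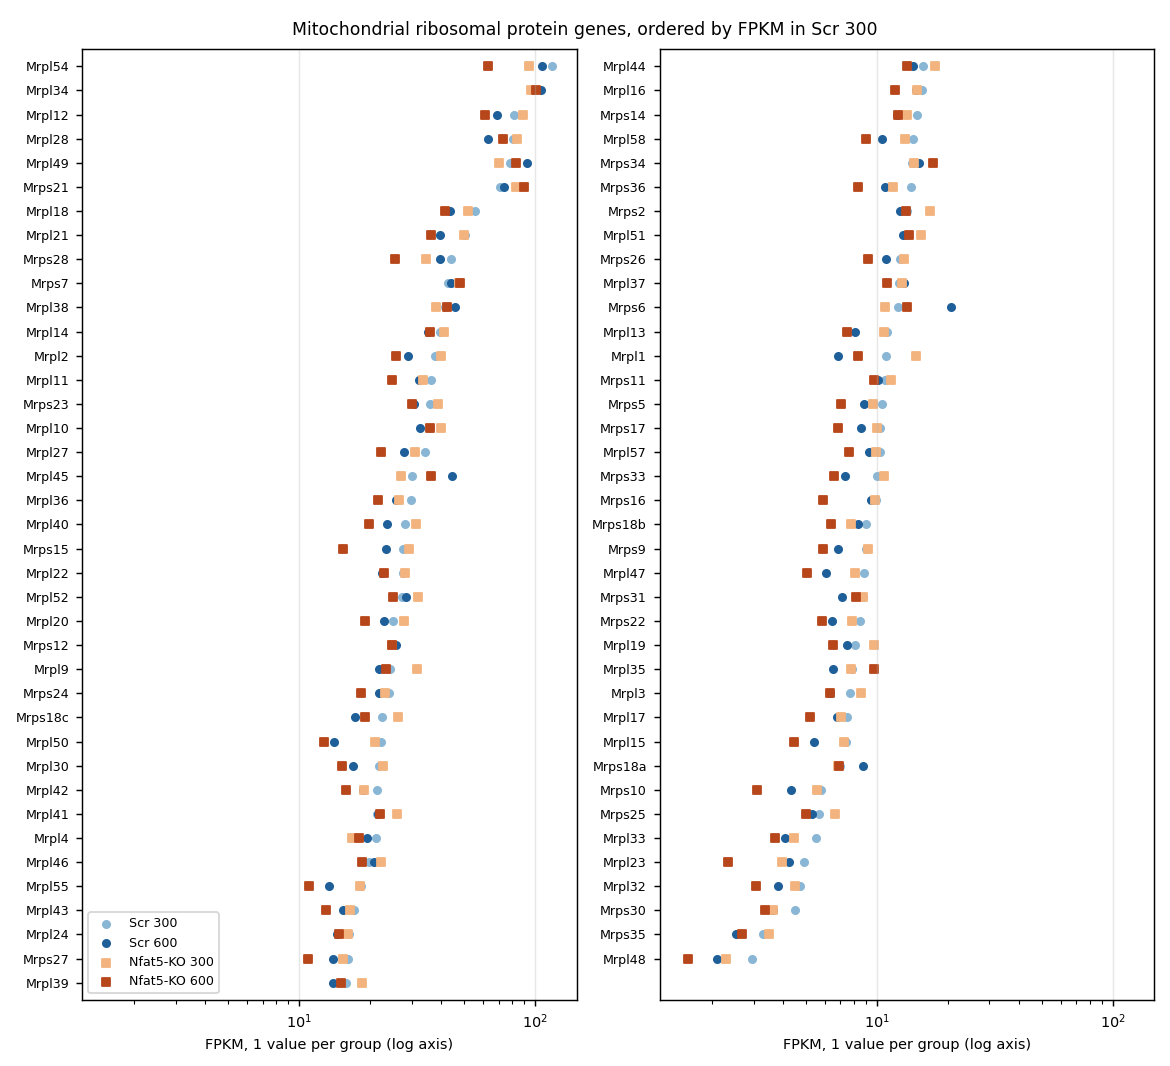
FPKM (log axis, 1 value per group, no error available) of the 77 mitochondrial ribosomal protein genes above 0, ordered by Scr_300; circles are Scr and squares Nfat5-KO cells, with the darker colour at 600 mosmol/kg. The darker squares (Nfat5-KO_600) are the lowest of the 4 values for 50 of the 77 genes.

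Genes of the same part of the ribosome were not at one level. In the stalk, which recruits translation factors, Mrpl12, the stalk protein itself, had 81.0, 69.3, 88.6 and 61.4 FPKM in Scr_300, Scr_600, Nfat5-KO_300 and Nfat5-KO_600. Mrpl10, which anchors it, had 35.9, 32.5, 40.1 and 36.0 FPKM in the same order. Mrpl11, at the stalk base, had 36.2, 32.4, 33.7 and 24.8 FPKM. For Mrpl12 and Mrpl11 the hypertonic knockout was the lowest group, and for Mrpl10 it was not. Mrps12, a protein of the decoding centre, had 24.5, 25.8, 24.7 and 24.8 FPKM, and its 4 values were nearly equal. Mrpl44, which resembles an RNase III, had 15.7, 14.2, 17.6 and 13.4 FPKM.

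At 300 mosmol/kg the genes differed little between the genotypes as a group. The median log2 ratio of Nfat5-KO_300 to Scr_300 was -0.02 over the 77 genes, beside -0.00 over all 12704 genes compared, with 35 genes above 0 and 42 below. At least 1.2-fold higher were 5 of the 77 (6.49%), beside 19.7% of all genes, and at least 1.2-fold lower were 7 (9.09%), beside 19.6%. Both counts were below the share of all genes. None reached 1.5-fold. The 5 higher genes were Mrpl1, a protein of the large subunit's mobile arm near the tRNA exit (log2 ratio 0.42), Mrpl9 (0.38), Mrps2 (0.31), Mrpl41 (0.27) and Mrpl19 (0.27). Mrpl1 had 11.0 FPKM in Scr_300 and 14.7 in Nfat5-KO_300. The genes with the lowest ratios were Mrps28 (-0.36), Mrpl48 (-0.35), Mrpl4 (-0.33), Mrpl54 (-0.32) and Mrpl33 (-0.31).

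At 600 mosmol/kg more of the genes were lower in the knockout, a description that depends on the scaling. Nfat5-KO_600 against Scr_600 gave a median of -0.16 on the log2 scale, beside -0.02 over all 13063 genes compared, and 58 of the 77 genes lay below 0. At least 1.2-fold lower were 24 (31.2%), beside 25.4% of all genes, and at least 1.2-fold higher were 3 (3.90%), beside 24.3%, but with the 4 groups scaled to equal FPKM sums the counts were 8 lower and 8 higher. The 8 lower genes are 10.4% of the 77, below the 16.7% of all genes under that scaling, where 34.7% of all genes were higher. With that scaling, chosen after the data were seen, the median of all genes moved to 0.11 and that of the 77 genes to -0.04, so that the distance from all genes was -0.15 instead of -0.14. The share of the FPKM sum that the 78 genes take was 0.730% in Scr_600 and 0.725% in Nfat5-KO_600, and it was 0.728% in Scr_300 and 0.735% in Nfat5-KO_300. With 1 value per group, neither scaling can be called the right one.

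The largest differences at 600 mosmol/kg were those of Mrpl23, at the tunnel exit, and Mrpl54. Mrpl23 (chromosome 7, 142532686 to 142540747) had 4.89 FPKM in Scr_300, 4.26 in Scr_600, 3.97 in Nfat5-KO_300 and 2.34 in Nfat5-KO_600, a log2 ratio of -0.83 at 600 mosmol/kg. A pseudogene with 100% identity over its aligned bases, Mrpl23-ps1, was listed at 13.4% of its level in Scr_300, so its value is uncertain, and the ratio was -0.65 with a pseudocount of 1 FPKM. Mrpl54, on chromosome 10 from 81264713 to 81266934, had a ratio of -0.76. Mrps16, a small subunit protein, had 9.91, 9.40, 9.84 and 5.92 FPKM in Scr_300, Scr_600, Nfat5-KO_300 and Nfat5-KO_600 and a ratio of -0.66. In all 3 genes the lowest value was that of the hypertonic knockout, and the Mrps16 values of the other 3 groups were nearly equal. Mrps28 (-0.63) and Mrps6 (-0.61) followed. Of the 19 genes above 0, the 5 highest were Mrpl35 (0.57), Mrps21 (0.28), Mrpl1 (0.28), Mrpl28 (0.21) and Mrps34 (0.20). Lower in the knockout by at least 1.2-fold at both osmolalities were 4 genes, Mrpl23, Mrpl48, Mrpl54 and Mrps28, and higher at both was 1 gene, Mrpl1. The shares of all genes past that limit at both osmolalities were not computed, so these counts cannot be called high or low. Across the 77 genes, Pearson's r between the knockout ratios at 300 and at 600 mosmol/kg was 0.56, beside 0.48 across 12353 genes of all kinds, and each ratio of a pair comes from separate groups. Genes share the libraries and are not independent, so the r is a description.

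**Figure D2:**
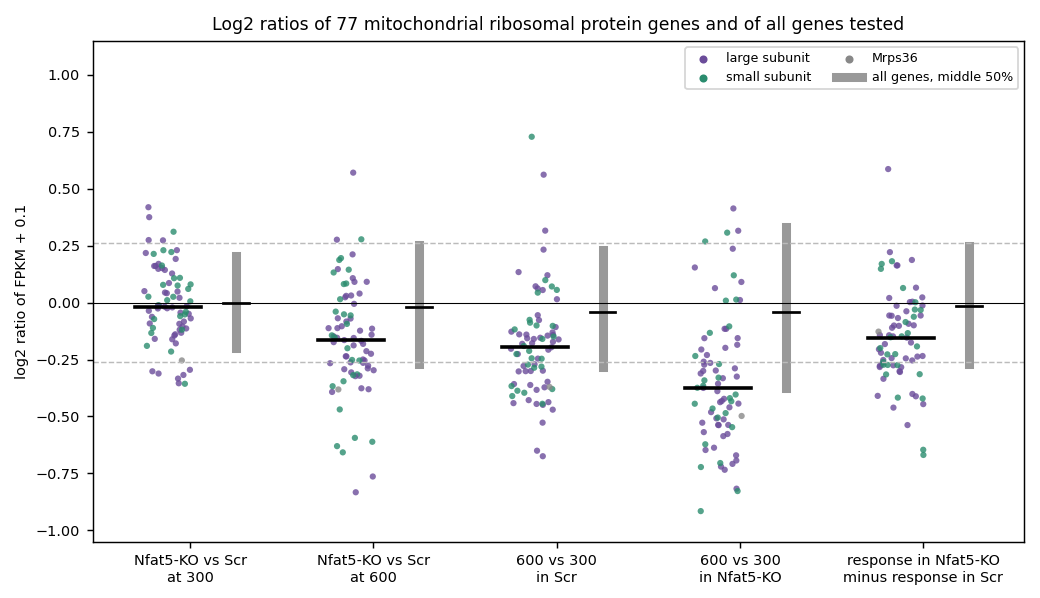
Log2 ratios of FPKM + 0.1 of the 77 genes (points, coloured by subunit) in the 4 comparisons and, at the right, the response to 600 mosmol/kg in Nfat5-KO cells minus that in Scr cells; thick lines are medians, grey bars the middle 50% of all genes tested with their median, and dashed lines 1.2-fold. The median of the 77 genes is near 0 at 300 mosmol/kg (-0.02), lower between osmolalities in Scr (-0.20) and lowest in Nfat5-KO cells (-0.37); with equal FPKM sums the last 2 are -0.07 and -0.14.

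In Scr cells the genes were mostly lower at 600 than at 300 mosmol/kg. The median log2 ratio of Scr_600 to Scr_300 was -0.20, beside -0.04 over all 12929 genes compared, and 63 of 77 genes lay below 0. At least 1.2-fold lower were 30 (39.0%), beside 26.7% of all genes, and at least 1.2-fold higher were 3 (3.90%), beside 22.9%; with equal FPKM sums these counts were 12 and 5 and the median was -0.07, beside 0.09 over all genes. The 12 are 15.6% of the 77, beside 17.2% of all genes under that scaling, where 32.4% of all genes were higher. The higher share of lower genes was thus not seen with it. With the median-of-ratios scaling the median was -0.16, with 23 lower (29.9%, beside 23.7% of all genes) and 4 higher (beside 25.5%). The distance of the members' median from that of all genes was -0.16 with each of these scalings. The 5 lowest ratios were those of Mrpl1 (-0.67), Mrpl50 (-0.65), Mrpl47 (-0.53), Mrpl48 (-0.47) and Mrpl55 (-0.45), all proteins of the large subunit. Mrpl50 had 22.2 FPKM in Scr_300 and 14.1 in Scr_600, and 20.9 in Nfat5-KO_300 and 12.8 in Nfat5-KO_600, so that both hypertonic groups were below both isotonic ones. The 5 highest ratios were those of Mrps6 (0.73), Mrpl45 (0.56), Mrps18a (0.32), Mrpl49 (0.23) and Mrpl38 (0.13). Mrpl45, which holds the ribosome at the inner membrane at the tunnel exit, had 30.0 FPKM in Scr_300, 44.3 in Scr_600, 27.1 in Nfat5-KO_300 and 36.1 in Nfat5-KO_600. In both genotypes its hypertonic value was the higher one.

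In Nfat5-KO cells a larger number of genes was lower at 600 than at 300 mosmol/kg. The median log2 ratio of Nfat5-KO_600 to Nfat5-KO_300 was -0.37, beside -0.04 over all 12982 genes compared, and 65 of 77 genes lay below 0. At least 1.2-fold lower were 53 (68.8%), beside 32.6% of all genes, and at least 1.2-fold higher were 4 (5.19%), beside 28.9%; with equal FPKM sums the counts were 24 and 9 and the median was -0.14, beside 0.20 over all genes. The 24 are 31.2% of the 77, beside 17.7% of all genes under that scaling, where 45.8% were higher. With the median-of-ratios scaling the median was -0.33, with 47 lower (61%, beside 29.7% of all genes) and 5 higher (beside 31.6%). In the values as deposited, 14 (18.2%) were at least 1.5-fold lower, beside 13.8% of all genes. The lowest ratio was that of Mrps15, a small subunit protein on chromosome 4 (126046925 to 126055532), which had 27.7 FPKM in Scr_300, 23.3 in Scr_600, 29.1 in Nfat5-KO_300 and 15.4 in Nfat5-KO_600, a log2 ratio of -0.92. Mrps10 had 5.79, 4.33, 5.59 and 3.10 FPKM in the same order and a ratio of -0.83. Mrpl1 (-0.82), Mrpl23 (-0.73) and Mrps16 (-0.72) were next. Mrps15 and Mrps10 had nearly equal values in the 2 isotonic groups and their lowest value in the hypertonic knockout. Mrpl35, a large subunit protein with a bacterial counterpart, was the single member at least 1.2-fold lower in one genotype and higher in the other, with 7.87 FPKM in Scr_300, 6.51 in Scr_600, 7.79 in Nfat5-KO_300 and 9.71 in Nfat5-KO_600. The highest ratios were those of Mrpl45 (0.41), Mrpl35 (0.32), Mrps6 (0.31), Mrps34 (0.27) and Mrpl49 (0.24).

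Summed over the 78 genes, FPKM was 1846 in Scr_300, 1692 in Scr_600, 1846 in Nfat5-KO_300 and 1539 in Nfat5-KO_600. The 2 isotonic sums were equal to 4 digits, and the hypertonic knockout had the lowest sum. In libraries made from whole cultures, fewer cells of a type and less RNA per cell cannot be told apart. Nfat5-KO_600 was the lowest of the 4 groups for 50 of the 77 genes (64.9%), beside 32.8% of the 13414 genes of all kinds that reached 0.5 FPKM. Scr_600 was lowest for 15 of the 77, Nfat5-KO_300 for 7 and Scr_300 for 5.

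Set side by side, 25 genes were at least 1.2-fold lower at 600 mosmol/kg in both genotypes, which is 83.3% of the 30 in Scr cells and 47.2% of the 53 in Nfat5-KO cells. Over the 12497 genes compared in both genotypes, 2266 were lower in both, 68.6% of those lower in Scr and 54.9% of those lower in the knockout. The 5 that passed 1.2-fold in Scr cells alone were Mrpl28, Mrpl35, Mrps14, Mrps30 and Mrps31, and 28 passed it in Nfat5-KO cells alone. Only Mrpl45 and Mrps6 were at least 1.2-fold higher in both, and the share of all genes higher in both was not computed. The response in Nfat5-KO cells minus the response in Scr cells had a median of -0.15 on the log2 scale, beside -0.01 over 13414 genes, and it was below 0 for 62 of 77 genes (80.5%), beside 52.0% of all genes. At least 1.2-fold lower were 23, beside 25.5% of all genes, and at least 1.2-fold higher was 1, beside 24.1%; with equal FPKM sums the counts were 10 and 7 and the median was -0.04, beside 0.10 over all genes. The 10 are 13% of the 77, below the 17.6% of all genes under that scaling, where 32.6% were higher. At 1.2-fold the 23 genes are 29.9% of the 77, close to the share of all genes. The median-of-ratios scaling gave the same counts of 23 lower and 1 higher and a median of -0.15. With 1 value per group the difference of the responses could not be tested. Across the 77 genes the 2 responses had a Pearson's r of 0.71, beside 0.64 across 12497 genes.

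**Figure D3:**
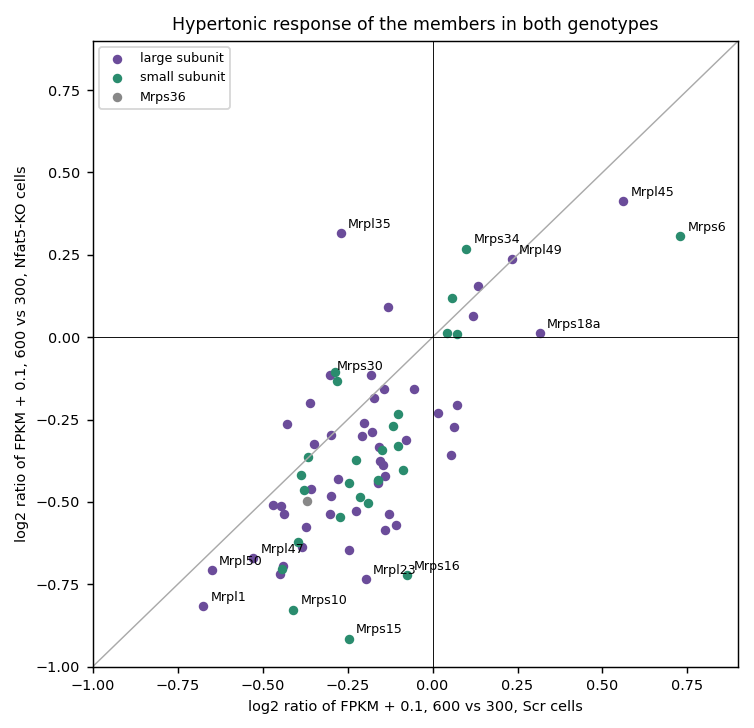
Log2 ratio of FPKM + 0.1 at 600 against 300 mosmol/kg for Scr (x) and Nfat5-KO (y), 1 point per gene, with the line of equal response. Most points lie below the line, at lower ratios in Nfat5-KO cells (62 of 77), Mrps6 and Mrpl45 are at the upper right, and Mrpl35 is the single gene past 1.2-fold in opposite directions.

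Other large groups of genes gave different values. For 83 cytosolic ribosomal protein genes, the ribosome of the cytosol, the median at 600 against 300 mosmol/kg was -0.57 on the log2 scale for Scr, with 78 at least 1.2-fold lower, and over 84 such genes it was -0.63 in Nfat5-KO cells, with 80 lower. Their response in Nfat5-KO cells minus that in Scr cells had a median of -0.05, and 6 of 84 passed 1.2-fold downward. For 75 nuclear genes of oxidative phosphorylation, whose proteins work beside the products of the mitochondrial ribosome, the medians were -0.21 in Scr and -0.22 in the knockout and the difference was 0.02, with 8 of 75 lower. In Scr cells the median of the mitochondrial ribosomal protein genes (-0.20) was nearer to 0 than that of the cytosolic ones, and their median difference between genotypes (-0.15) was below that of either group. It was not particular to them among the lists described below. The median difference was -0.14 for mitochondrial translation factors, -0.13 for assembly factors, -0.12 for transcription and mRNA stability and -0.25 for biogenesis regulators. For ribosomal proteins with other names it was -0.12, for synthetases -0.07 and for transcripts of the mitochondrial genome -0.02. These are descriptions of the group values, and the differences between the gene groups were not tested. For the counts, 26.7% of all genes were at least 1.2-fold lower in Scr, 32.6% in the knockout and 25.5% for the difference.

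By place in the ribosome the genes gave like values. The median log2 ratio in Nfat5-KO cells between 600 and 300 mosmol/kg was -0.37 for 50 genes of the large subunit, with 34 at least 1.2-fold lower, and -0.39 for 26 of the small subunit, with 18 lower. In Scr cells the medians were -0.19, with 20 lower, and -0.20, with 9 lower. The counts here and below stand beside 32.6% of all genes lower in the knockout and 26.7% in Scr. Genes with a bacterial counterpart had a median of -0.43 in Nfat5-KO cells (34 of 48 lower) and mitochondria-specific genes one of -0.37 (19 of 29 lower). Of 9 genes of the central protuberance, the part of the large subunit that faces the small one, 8 in the knockout and 5 in Scr were at least 1.2-fold lower at 600 mosmol/kg. The exception in the knockout, Mrpl38, had 41.7 FPKM in Scr_300, 45.8 in Scr_600, 38.0 in Nfat5-KO_300 and 42.3 in Nfat5-KO_600. Of 6 genes of the tunnel exit, 4 were lower and Mrpl45 was higher.

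Ratios also varied with the level. Of 25 genes with a mean under 10 FPKM, 21 (84%) in the knockout and 16 (64%) in Scr were at least 1.2-fold lower at 600 mosmol/kg. Of 23 with a mean of at least 25 FPKM, 14 (60.9%) and 6 (26.1%) were. Over all genes at any level the shares were 32.6% and 26.7%, so the 26.1% in Scr is close to that of all genes. The members were not compared with other genes of like level. Across the 77 genes, Pearson's r between the log2 mean level and the ratio was 0.29 in Nfat5-KO and 0.32 in Scr cells. Within 1.2-fold in all 4 comparisons were 12 genes, Mrpl10, Mrpl14, Mrpl24, Mrpl34, Mrpl37, Mrpl38, Mrpl42, Mrpl49, Mrpl51, Mrps7, Mrps11 and Mrps12. The share of all genes within that limit in all 4 was not computed. Mrps7, for example, a small subunit protein, had 42.7 FPKM in Scr_300, 44.0 in Scr_600, 47.8 in Nfat5-KO_300 and 48.2 in Nfat5-KO_600.

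Some names do not tell where a protein works. The genes Mrps18a, Mrps18b and Mrps18c are paralogs, of which Mrps18a belongs to the large subunit and the other 2 to the small one. Mrps18a (chromosome 17, 46110986 to 46128910) had 6.96 FPKM in Scr_300, 8.69 in Scr_600, 6.87 in Nfat5-KO_300 and 6.93 in Nfat5-KO_600. Mrps18b, on the same chromosome, had 9.01, 8.29, 7.74 and 6.41 FPKM in this order, and Mrps18c, on chromosome 5, had 22.4, 17.2, 26.3 and 19.1 FPKM. A pseudogene of Mrps18b with 99.8% identity, Gm13552, had 4.05 FPKM in Scr_300, 45.0% of the Mrps18b level, so the Mrps18b values are uncertain. The highest of the 4 values was in Scr_600 for Mrps18a, in Scr_300 for Mrps18b and in Nfat5-KO_300 for Mrps18c. Mrps30, also a large subunit protein, had 4.51, 3.64, 3.64 and 3.35 FPKM and was highest in Scr_300. Mrpl58, which can release stalled ribosomes by its peptidyl-tRNA hydrolase activity, had 14.2, 10.5, 13.1 and 9.01 FPKM, lower in both hypertonic groups. Mrps36, the dehydrogenase component, had 14.0, 10.8, 11.7 and 8.28 FPKM and was also lower at 600 mosmol/kg, with log2 ratios of -0.37 in Scr and -0.50 in the knockout.

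Mrps6, a small subunit protein on chromosome 16 (92058270 to 92112227, plus strand), stood apart by its higher value in hypertonic Scr cells. It had 12.3 FPKM in Scr_300, 20.5 in Scr_600, 10.8 in Nfat5-KO_300 and 13.4 in Nfat5-KO_600. The gene starts 52 bases before Slc5a3 (92058322 to 92087473) on the same strand, the gene of a sodium-coupled myo-inositol transporter that loads cells with an organic osmolyte, and the 2 share 159 bases of exon, 10.4% of the exon bases of Mrps6. A further gene model on that strand, Gm49711, shares 305 bases (19.9%). Slc5a3 had 2.12 FPKM in Scr_300, 4.69 in Scr_600, 1.87 in Nfat5-KO_300 and 2.27 in Nfat5-KO_600. Mrps6 and Slc5a3 thus had the same order of groups, with a log2 ratio between 600 and 300 mosmol/kg of 0.73 for Mrps6 and 1.11 for Slc5a3 in Scr cells, and of 0.31 and 0.27 in Nfat5-KO cells. At 600 mosmol/kg the knockout ratio was -0.61 for Mrps6 and -1.02 for Slc5a3. How reads in the shared exons were assigned is not given in the sources used here, and its part in the Mrps6 values was not tested.

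Shared sequence touches other members as well. Exon bases are shared with a gene on the same strand by 8 of the 78 genes and with one on the opposite strand by 28, 33 in all, and whether the counting used strand is not given in the sources used here. Mrpl53, on chromosome 6 (83109040 to 83109939), shares 695 bases (88.0%) with Gm42688, which had between 0.104 and 0.222 FPKM, so the 0 in all groups does not tell that Mrpl53 is not expressed. Mrps25 shares 69.8% of its exon bases with Nr2c2 and Mrps34 shares 63.4% with Mapk8ip3, both on the opposite strand. Mrps34 also shares 763 bases (37.0%) with Nme3 on the same strand, and Nme3 was listed at 0 in all groups. Mrps34, among the few members above 0 in both genotypes at 600 mosmol/kg, had log2 ratios of 0.10 in Scr and 0.27 in the knockout, and Mapk8ip3 had 0.19 and 0.58. Pseudogenes with at least 90% identity were found for 27 genes, and for 5 of them the copies reached at least 10% of the member's FPKM in Scr_300, so that their values are uncertain. Mrpl48 had 2.95 FPKM in Scr_300 and its copy Mrpl48-ps (98.1% identity) had 11.6. The copy had 8.51 FPKM in Scr_600, 8.25 in Nfat5-KO_300 and 5.61 in Nfat5-KO_600, the order of Mrpl48 itself (2.10, 2.29 and 1.58 FPKM) being the same at both ends. Mrps33 had 9.97, 7.30, 10.7 and 6.55 FPKM in Scr_300, Scr_600, Nfat5-KO_300 and Nfat5-KO_600, and Gm5776, a copy with 99.7% identity, had 14.2, 10.9, 9.78 and 6.58 FPKM. In both the lowest value was in the hypertonic knockout. Over the 42 genes without shared exon bases or such copies the medians were -0.24 in Scr and -0.40 in the knockout between 600 and 300 mosmol/kg.

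**Figure D4:**
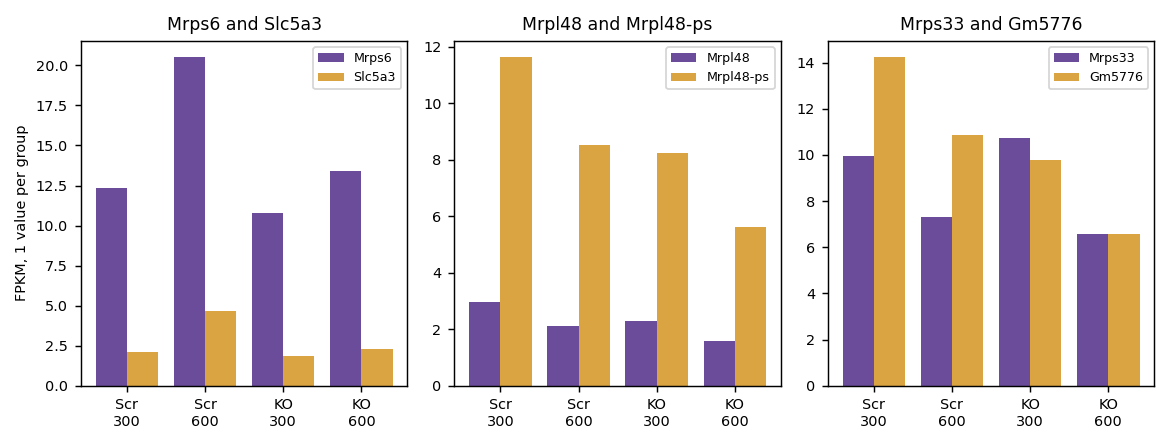
FPKM (1 value per group, no error available) of 3 members (violet) and of a gene that shares sequence with each (ochre), for Scr and Nfat5-KO (KO) cells at 300 and 600 mosmol/kg. Mrps6 and Slc5a3 are both highest in Scr_600 (20.5 and 4.69 FPKM), and the copies Mrpl48-ps and Gm5776 exceed their members in Scr_300.

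The ratios of knockout to Scr differed with the place of a gene in the genome. The median ratio of the other genes within 10 Mb on each side was taken for each member. At 300 mosmol/kg its Pearson's r with the member's own ratio was 0.55 across the 77 genes. For 15 genes whose neighbours had a median of at least 0.1, the members' median was 0.21, and for the other 62 it was -0.04. All 5 genes at least 1.2-fold higher were among the 15 and all 7 lower ones among the 62. Of the 15, 5 lie on chromosome 6, 3 on chromosome 3 and 3 on chromosome 5. At 600 mosmol/kg the r was 0.37, and the medians were 0.04 over 17 genes and -0.21 over the other 60, of which 22 were at least 1.2-fold lower. Between osmolalities the r was 0.22 in Scr and 0.17 in the knockout. Members close to each other share neighbours, all ratios share the libraries, and no r was tested. The part of position in the ratios was not tested.

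**Figure D5:**
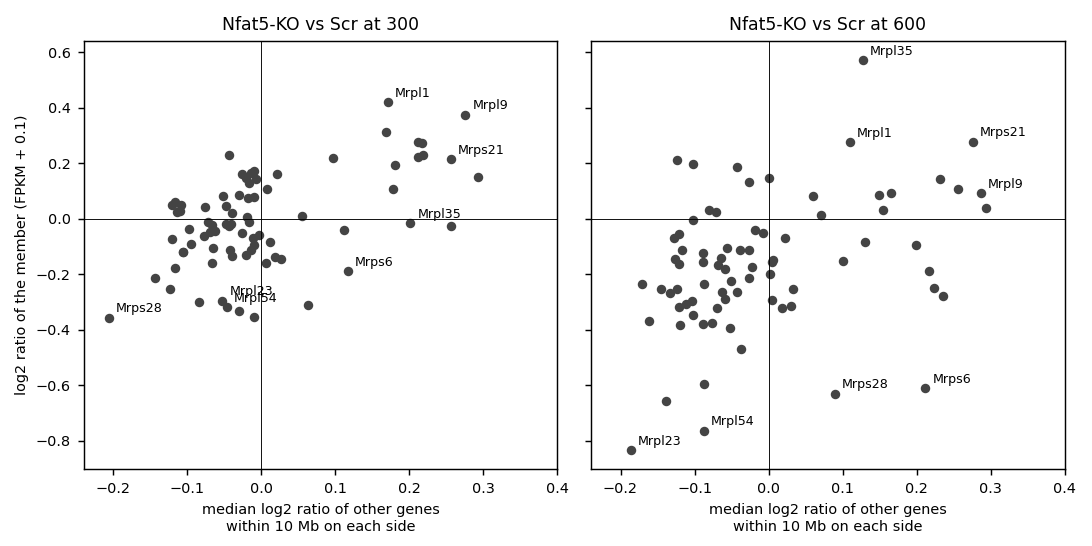
Log2 ratio of Nfat5-KO to Scr of each member (y, FPKM + 0.1) against the median log2 ratio of the other genes within 10 Mb on each side (x), at 300 and at 600 mosmol/kg, 1 point per gene. At 300 mosmol/kg the points run from lower left to upper right (r = 0.55), with Mrpl1 and Mrpl9 at the top; at 600 mosmol/kg the spread is wider (r = 0.37).

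Between genotypes, the ratios of the 23 head-to-head partners within 1000 bp of a member had a Pearson's r with the members' ratios of 0.41 at 300 and 0.43 at 600 mosmol/kg. Between osmolalities the r was 0.05 in Scr and 0.07 in the knockout. The pairs share the libraries, and no r was tested. Over these partners, the median log2 ratio at 600 against 300 mosmol/kg was 0.04 in Scr and 0.06 in the knockout, with 2 and 4 at least 1.2-fold lower and 8 and 6 higher. These counts stand beside 26.7% and 32.6% of all genes lower and 22.9% and 28.9% higher. Zfp189, for example, whose start lies 83 bp from that of Mrpl50, had 0.33 in Scr and 0.79 in the knockout, while Mrpl50 had -0.65 and -0.71. Zfp189 was low, with 0.945 FPKM in Scr_300, 1.21 in Scr_600, 0.900 in Nfat5-KO_300 and 1.63 in Nfat5-KO_600. Klc4, 207 bp from Mrpl2, had 0.36 and 0.92, and Mrpl2 had -0.38 and -0.64. Fau, which encodes a cytosolic ribosomal protein and starts 59 bp from Mrpl49, had -0.45 and -0.53, while Mrpl49 had 0.23 and 0.24. In these 3 pairs the ratios of the member and its partner had opposite signs. Psma2, a proteasome subunit gene 75 bp from Mrpl32, had -0.21 and -0.56, and Mrpl32 had -0.30 and -0.54, with like values in this pair. All 4 pairs were chosen after their values were seen.

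The other proteins of the mitochondrial ribosome, which carry other names, and the factors around it were taken from lists. Their counts stand beside 32.6% of all genes lower in the knockout and 26.7% in Scr, and 28.9% and 22.9% higher. Counts of the lists were not repeated with equal FPKM sums, so their dependence on the scaling was not tested. Of 5 ribosomal proteins with other names, 2 were at least 1.2-fold lower at 600 mosmol/kg in Nfat5-KO cells (Ptcd3, -0.46, and Aurkaip1, -0.28) and 1 in Scr cells (Ptcd3, -0.34). Dap3, a GTP-binding protein of the small subunit, had 13.9 FPKM in Scr_300, 11.8 in Scr_600, 14.3 in Nfat5-KO_300 and 14.7 in Nfat5-KO_600. Of 12 mitochondrial translation factors compared, 6 (50%) were lower in the knockout and 2 (16.7%) in Scr, and none was higher. Mrrf, the recycling factor, had -0.50 in Nfat5-KO and -0.38 in Scr cells, and Gfm2, which recycles ribosomes with it, had -0.45 and -0.15. Gfm1, the elongation factor that moves the ribosome along the mRNA, had 17.6 FPKM in Scr_300, 15.7 in Scr_600, 26.4 in Nfat5-KO_300 and 19.9 in Nfat5-KO_600, and both knockout values were the higher ones.

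Of 28 factors for assembly of the mitochondrial ribosome and modification of its rRNA, 15 (53.6%) were at least 1.2-fold lower at 600 mosmol/kg in Nfat5-KO cells and 1 was higher, and in Scr cells 5 (17.9%) were lower and 2 higher. Tfb1m, the methyltransferase that marks the small rRNA, had 3.01 FPKM in Scr_300, 1.61 in Scr_600, 2.31 in Nfat5-KO_300 and 1.23 in Nfat5-KO_600. Its log2 ratios were -0.86 in Scr and -0.85 in the knockout. Malsu1, which binds the large subunit during assembly, had -0.59 and -0.56. Rcc1l had 0.06 in Scr and -0.66 in the knockout, and Mpv17l2 had -0.21 and -0.60. Mettl17 was at least 1.2-fold higher in both, with 0.43 and 0.60. Tfb1m and Malsu1 thus had like ratios in the genotypes, while Rcc1l had a lower ratio in the knockout.

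Among 9 regulators of mitochondrial biogenesis compared, the hypertonic value was at least 1.2-fold lower for 6 in the knockout (66.7%) and for 3 in Scr (33.3%), and it was higher for 1 in each, Yy1 (0.32) in the knockout and Esrra (0.32) in Scr. Gabpa and Gabpb1 encode the DNA-binding and activating parts of an ETS factor. Gabpa had 17.1 FPKM in Scr_300, 13.1 in Scr_600, 17.8 in Nfat5-KO_300 and 14.1 in Nfat5-KO_600, lower in both hypertonic groups. Gabpb1 had 6.75, 5.65, 5.76 and 4.03 FPKM. The related Gabpb2, of the same list, was not lower in the hypertonic groups, with 7.57, 7.62, 7.93 and 8.86 FPKM. Nrf1 had 4.72, 4.77, 4.85 and 3.99 FPKM, with a log2 ratio of 0.02 in Scr and -0.27 in the knockout. Yy1 had 27.2, 26.8, 31.0 and 38.8 FPKM and was highest in the hypertonic knockout. Myc, which raises ribosome production, had 25.7, 20.1, 30.9 and 18.8 FPKM, lower in both hypertonic groups. Ppargc1a, a coactivator of these programmes, lay between 0.00237 and 0.0188 FPKM, and the related Pprc1 had 17.3, 17.2, 19.9 and 13.7 FPKM. Ppargc1b, near the filter limit, had 0.733, 0.337, 0.685 and 0.334 FPKM. Its log2 ratios of -0.93 in Scr and -0.86 in the knockout were the lowest of this list.

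Of 14 genes for mitochondrial transcription and mRNA stability, the hypertonic value was at least 1.2-fold lower for 6 in the knockout (42.9%) and for 5 in Scr (35.7%), with 1 higher in each. Lrpprc, which protects mitochondrial mRNAs, had 24.4 FPKM in Scr_300, 19.6 in Scr_600, 23.9 in Nfat5-KO_300 and 15.8 in Nfat5-KO_600. Tfam, which packs and transcribes mitochondrial DNA, had 21.8, 16.1, 19.4 and 16.7 FPKM. Both were lower in the 2 hypertonic groups, Lrpprc with log2 ratios of -0.31 in Scr and -0.60 in the knockout and Tfam with -0.43 and -0.21. The lowest ratio in the knockout was that of Mterf1b (-0.45 in Scr and -0.93 in the knockout), a low gene with 1.71 FPKM in Scr_300 and 0.684 in Nfat5-KO_600. The gene higher in each was Polrmt, with 11.5 FPKM in Scr_300, 13.9 in Scr_600, 11.9 in Nfat5-KO_300 and 15.5 in Nfat5-KO_600. Its log2 ratios were 0.27 in Scr and 0.38 in the knockout.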

How the data were processed

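RNA-seq of poly(A) RNA came from 12 cultures in 4 groups. The authors aligned reads with HISAT2 to GRCm38 (mm10), counted them per gene with HTSeq and deposited FPKM, 1 value per gene and group. Whether counting used strand, and how a group's libraries were merged into its value, is not given in the sources used here. The depth is unknown, and counting error, intervals and replicate spread cannot be computed. The planned limma test needs values per library and could not be run.

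Of 54839 rows, 2436 without a value and 311 exact repeats were dropped, as were 37 symbols on several rows, which left 52015 genes. Ratios were log2(FPKM + 0.1), which understates low genes, where 0.5 FPKM was reached in 1 of the 2 groups. A gene was counted at 1.2-fold, which is not a test. The members and all gene lists were chosen with earlier results of these data known. Named were the members with the 5 highest and 5 lowest ratios in each comparison (at least 1 FPKM in both groups) and the 5 highest and lowest levels in Scr_300, the Mrps18 paralogs, members whose name and place differ, members with a defined role, list genes past 1.2-fold (at most 6 a list) and Nfat5. Genes named outside that rule, such as overlap partners and pseudogene copies, were chosen after their values were seen. Positions and overlaps came from GENCODE M21 and promoters from RefSeq. Pseudogenes were aligned with blastn 2.17.0 (at least 90% identity, 100 bases and 50% of the pseudogene). Python 3.11.15 with numpy 2.4.6, pandas 2.3.3, scipy 1.17.1 and matplotlib 3.10.9 was used, and the ratio step was tested on simulated data.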

Additional observations from a re-analysis of the deposited data

Results flagged for a closer look

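Mrpl35 was flagged because its ratios between 600 and 300 mosmol/kg had opposite directions in the 2 genotypes. The log2 ratio was -0.27 in Scr and 0.32 in the knockout. At 300 mosmol/kg the genotypes had nearly equal levels (7.87 FPKM in Scr_300 and 7.79 in Nfat5-KO_300). The difference was not tested, since each group has 1 value.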

How the results depend on the processing

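The alternatives changed the pseudocount, the filter on low values, the fold limit and the scaling. Of 120 values of whole comparisons 98 stayed the same, 22 moved and 0 reversed. A count was called the same within 1.5-fold and could not be called reversed. Both changes of the filter, with 15 values each, left every member value as it was, so their values could not move. For 40 named members 482 of 624 stayed the same (within 0.05 on the log2 scale) and 0 reversed. A member was called reversed only if its main ratio was past 1.2-fold, so smaller ratios that changed sign were not counted. At 1.5-fold, counts were 0 higher and 0 lower at 300 mosmol/kg between genotypes, and 0 and 6 at 600 mosmol/kg. They were 1 and 2 between osmolalities in Scr, 0 and 14 in the knockout, and 1 and 2 for the difference of responses. In this order the lower genes were 0%, 7.79%, 2.6%, 18.2% and 2.6% of the 77, beside 6.21%, 9.44%, 9.01%, 13.8% and 8.75% of all genes. Only between osmolalities in the knockout was the share of lower genes above that of all genes. Higher were 5.27%, 9.84%, 10.4%, 14.1% and 9.48% of all genes. With equal FPKM sums, chosen after seeing the data, the median, higher and lower counts were -0.037, 8 and 8 between genotypes at 600 mosmol/kg, -0.069, 5 and 12 in Scr, -0.14, 9 and 24 in the knockout, and -0.043, 7 and 10 for the difference of responses. Without members that share exon bases or have expressed copies, also chosen after seeing the data, the median difference of responses was -0.22. The cause was not tested, apart from the stricter limit itself. No paired analysis was possible because each group has 1 value, and for the same reason leaving out single libraries was not run. Depth is unknown and limits low genes most.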

Other observations

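The partners of the mitochondrial ribosome that charge its tRNAs gave mixed values. Of 17 mitochondrial aminoacyl-tRNA synthetases, 5 (29.4%) were at least 1.2-fold lower and 4 higher at 600 than at 300 mosmol/kg in Nfat5-KO cells. In Scr cells 2 (11.8%) were lower and 3 higher. Among all genes 32.6% and 26.7% were lower and 28.9% and 22.9% higher. The median log2 ratios of the synthetases were -0.06 and -0.04. Rars2, which charges the arginine tRNA, had 9.20 FPKM in Scr_300, 8.14 in Scr_600, 9.24 in Nfat5-KO_300 and 5.65 in Nfat5-KO_600. Lars2, for leucine, had 14.3, 14.0, 15.4 and 19.0 FPKM in the same order. The hypertonic knockout was thus the lowest group for Rars2 and the highest for Lars2.

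The transcripts of the mitochondrial genome were also not uniform, in libraries selected for poly(A) RNA. Of 15 compared, 6 in each genotype (40.0%) were at least 1.2-fold lower at 600 mosmol/kg, beside 32.6% of all genes in the knockout and 26.7% in Scr. The large rRNA, mt-Rnr2, had 251 FPKM in Scr_300, 149 in Scr_600, 191 in Nfat5-KO_300 and 154 in Nfat5-KO_600, lower in both hypertonic groups. The small rRNA, mt-Rnr1, had 233, 200, 228 and 210 FPKM. Of the subunits of cytochrome c oxidase, mt-Co2 had 45.4, 47.0, 32.2 and 30.4 FPKM, lower in both knockout groups. Its level was far below that of mt-Co1, another subunit, which had 2583, 2561, 1974 and 2184 FPKM. Copies of the mitochondrial genes elsewhere in the genome were not searched, and the part of shared sequence in these values was not tested.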
